A study of Mus musculus with 25 samples.

Results

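Transcript levels of NK1.1-positive stage 3 invariant natural killer T (iNKT) cells from the thymus were compared between mice labelled Mst1KO and wild-type (WT) mice, all of strain C57BL/6. The arrays were chosen by their genotype and stage label, 5 of Mst1KO_S3 and 7 of WT_S3, which made 12 of the 25 arrays of the series. All 5 Mst1KO_S3 arrays and 4 of the WT_S3 arrays carry the lower title numbers and are called the first run here, and the other 3 WT_S3 arrays, with the higher numbers, the second run. The label protocols describe a step with a CD8 microbead kit and then a sort for TCR beta, CD1d tetramer loaded with PBS57, CD44 and NK1.1, with CD24 gated out. Cells of the same genotypes without NK1.1, labelled S1_S2, gave 4 Mst1KO and 6 WT arrays and are used for comparison. The sources used here do not give how the Mst1 allele was made, which cells lack it, or the age, sex and number of animals behind each array. The p-values therefore measure only how far these arrays spread, and that spread may be technical.

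Mst1, encoded by Stk4, is a serine-threonine kinase of the Hippo pathway. In the classical pathway it acts with the adaptor Sav1 on the kinases Lats1 and Lats2, which hold back the coactivators Yap1 and Wwtr1. In lymphocytes it also acts through the adaptor Rassf5 and the Mob1 proteins on integrin-dependent adhesion, migration and exit from the thymus. iNKT cells express a semi-invariant T cell receptor that binds lipids on CD1d. They divide at the early stages, and become largely quiescent as they gain NK1.1, cytotoxic genes and interferon gamma.

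Levels are the deposited log2 values, on which a difference of 1 is a 2-fold change. A gene is called when limma gave a Benjamini-Hochberg adjusted p under 0.05 over all 22206 transcript clusters. Each difference is Mst1KO minus WT in a model with the run as an additive term, and is given with its standard error (SE). The background of an array is the median of its negative controls, which was 6.19 to 6.41 in WT_S3 and 6.36 to 6.59 in Mst1KO_S3. Mst1KO_S3 replicates 3 and 4 lacked signal from 3 Y-linked genes, which every WT_S3 array had. The correlation between arrays was 0.981 to 0.991 within WT_S3 and 0.989 to 0.992 within Mst1KO_S3.

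The genes that mark the sorted cells were well above the controls in both groups. The T cell receptor subunit gene Cd3d had a mean level of 12.69 ± 0.03 (SD, n = 7) in WT_S3 and 12.68 ± 0.06 (SD, n = 5) in Mst1KO_S3. Zbtb16, which encodes the lineage factor PLZF, was at 11.68 ± 0.25 and 11.60 ± 0.08, and Klrb1c, which encodes NK1.1, at 12.53 ± 0.10 and 12.39 ± 0.13. None of these 3 was called. Cd24a, whose product was gated out, had an adjusted p of 0.042 in limma but lay below the negative controls on all 12 arrays, so that its difference is no measured level. Of 41 markers of B cells, myeloid cells, regulatory T cells, stroma and erythroid cells 0 were called by limma, against 6.37% of all clusters. An unadjusted p under 0.05 in limma was reached by 10 of them, and by 5244 of all 22206 clusters. Of the 41 differences 34 were below 0, in a range from -0.50 to 0.29.

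Stk4 itself was not called at stage 3. WT_S3 arrays ran from 9.69 to 10.73 with a median of 10.49, and the Mst1KO_S3 arrays 1 to 5 read 9.64, 10.13, 9.43, 9.58 and 9.91. The groups overlapped, with a difference of -0.35 (SE 0.15, adjusted p = 0.15). In S1_S2 cells the same cluster fell by 0.92 (SE 0.16, adjusted p = 0.0059), with the 4 Mst1KO arrays between 9.22 and 9.40 and the 6 WT arrays between 10.18 and 10.74. The sources used here do not give which part of the gene these probes read or which part the allele lacks.

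Between Mst1KO_S3 and WT_S3, 1415 of the 22206 clusters were called (6.37%), 829 of them higher in Mst1KO_S3 (3.73%) and 586 lower (2.64%). Of these, 81 were at least 2-fold higher and 24 at least 2-fold lower, and the median difference over all clusters was -0.05. In 1886 clusters (8.49%) the Mst1KO_S3 arrays all lay above or all below the first-run WT_S3 arrays. They lay above in 856 of these and below in 1030, so that this count leaned lower while the calls leaned higher. The first-run arrays alone gave 336 calls, of which 323 were also called with all arrays and in the same direction. Without Mst1KO_S3 replicate 2 there were 871 calls, 538 higher and 333 lower, and without replicate 5 783, 490 higher and 293 lower. Without replicate 4 the lower calls came to 374. Since RNA of a sorted population was measured in bulk, a change in the share of cells that express a gene and a change in RNA per cell cannot be told apart.

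Many genes of cell division rose in the Mst1KO_S3 arrays. Of 193 measured genes in 9 lists, from replication licensing to chromosome segregation, 61 rose (31.6%, against 3.73% of all clusters). None of the 193 was called lower, against 2.64% of all clusters, and 2 were lower at an unadjusted p under 0.05 in limma. The median difference was 0.36, and 167 were above 0. The mean level of the 193 genes was 7.70 to 7.93 on the first-run WT_S3 arrays, 8.01 to 8.08 on the second-run ones and 8.15 to 8.27 on the Mst1KO_S3 arrays. Every Mst1KO_S3 array thus lay above every WT_S3 array, by little over the second run. The first-run arrays alone called 23 of the 193 genes, and the arrays with Y-linked signal 27.

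**Figure D1:**
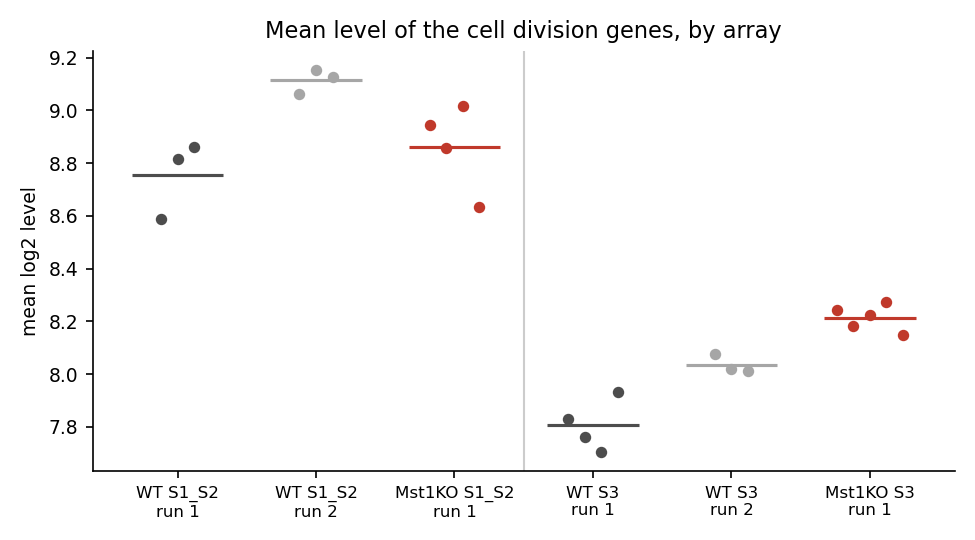
Mean log2 level of the 193 cell division genes on each array (points), with the mean of each group as a bar, for WT and Mst1KO arrays of S1_S2 and S3 cells by title number run. The 5 Mst1KO S3 arrays (8.15 to 8.27) lie above the 7 WT S3 arrays (7.70 to 8.08) and below all S1_S2 arrays shown.

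Many cell division genes carry an E2F site or a cell cycle genes homology region (CHR) close to their start, through which E2F and DREAM complexes act. RefSeq promoters of build GRCm38.p6, from 250 bases before to 50 after each start, were searched on both strands for TTTCCCGC, TTTCGCGC, TTTGGCGC and TTTGCCGC (E2F type) and for TTTGAA (CHR). Of 15691 measured genes with a promoter matched by symbol, 3.38% held an E2F-type match and 17.8% a CHR match. Of 161 cell division genes 23.0% and 44.1% did. Among the cell division genes that rose, 15 of 48 (31.3%) held an E2F-type match, and among those not called 22 of 113 (19.5%). For the CHR it was 20 of 48 (41.7%) and 51 of 113 (45.1%). The 150 bases before the start are printed for 4 of the genes that rose, to show how these matches sit. These genes were chosen because they hold a match there, and genes without one were passed over. Capitals mark a match or its reverse complement. In Kif15 (chr9:122950931-122951080, plus strand) an E2F-type match is followed at once by a CHR. Cdk1 (chr10:69352913-69353062, minus strand) holds 1 E2F-type and 2 CHR matches, Dtl (chr1:191575545-191575694, minus strand) an E2F-type match next to the start, and Ube2c (chr2:164769779-164769928, plus strand) a CHR. Of these, Dtl, whose product marks proteins for destruction in S phase, rose by 0.96 (SE 0.22) but was not called without the run term (adjusted p = 0.14), with run as a random block (0.055), on the arrays with Y-linked signal (0.059) or with the negative control level as a covariate (0.12).
Kif15: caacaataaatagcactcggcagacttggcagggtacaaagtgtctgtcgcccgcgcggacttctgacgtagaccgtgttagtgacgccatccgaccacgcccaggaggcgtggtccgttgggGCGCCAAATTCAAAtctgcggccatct
Cdk1: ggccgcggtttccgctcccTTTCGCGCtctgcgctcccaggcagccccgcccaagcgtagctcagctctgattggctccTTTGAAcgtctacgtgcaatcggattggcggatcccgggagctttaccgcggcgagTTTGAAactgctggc
Dtl: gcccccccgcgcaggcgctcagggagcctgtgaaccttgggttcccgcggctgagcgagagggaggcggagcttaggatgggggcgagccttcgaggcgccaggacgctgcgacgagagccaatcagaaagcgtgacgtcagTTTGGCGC
Ube2c: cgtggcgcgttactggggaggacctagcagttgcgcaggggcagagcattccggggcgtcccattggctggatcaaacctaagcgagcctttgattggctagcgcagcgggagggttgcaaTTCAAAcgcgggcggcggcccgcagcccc
A match describes the letters only, and no binding was measured.

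Mki67, which encodes the Ki-67 protein of cycling cells, was high on every Mst1KO_S3 array. WT_S3 arrays ran from 8.36 to 9.45 with a median of 8.996, and the Mst1KO_S3 arrays read 10.27, 10.06, 10.45, 10.13 and 9.89. The groups did not overlap, and the difference was 1.42 (SE 0.13, adjusted p = 1.4e-06), a 2.67-fold rise. The spindle kinesin gene Kif15 was at or below the negative controls on all 7 WT_S3 arrays, at 4.71 to 5.94 with a median of 5.15. It was above them on all 5 Mst1KO_S3 arrays, at 7.26, 7.79, 7.29, 6.58 and 7.32. Taken against the controls of the WT_S3 arrays, its rise was 0.96 on the log2 scale. The controls of the Mst1KO_S3 arrays were mostly higher, and replicate 4 was close to its own at 6.51. The adjusted p of 1.8e-05 in limma belongs to the fitted difference. That difference rests on WT_S3 levels at the background, so that its size is not measured. Cdk1, the kinase that drives entry into mitosis, ran from 6.29 to 7.71 in WT_S3 with a median of 6.66, and read 8.25, 7.86, 7.28, 8.01 and 7.54 in Mst1KO_S3. All Mst1KO_S3 arrays were above all first-run WT_S3 arrays, 1 second-run array lay among them, and the difference was 1.34 (SE 0.21, adjusted p = 0.00065).

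Of 20 genes for replication licensing 5 rose and 0 fell, with a median of 0.34. Gins1, a subunit of the replicative helicase, ran from 4.10 to 6.81 in WT_S3 with a median of 6.35, and was above the controls on 3 of these 7 arrays. The Mst1KO_S3 arrays read 7.21, 7.64, 7.60, 7.37 and 7.69, all above every WT_S3 array, with an adjusted p of 0.0030 in limma. Its fitted difference of 1.83 (SE 0.35) rests in part on WT_S3 levels at the background, so that its size is not well measured. Cdc6, which helps to load the helicase, rose by 0.99 (SE 0.15), and Gins2 by 0.83 (SE 0.13). Of 24 genes for DNA synthesis and nucleotide supply 13 rose, with a median of 0.35, but 5 without the run term, on the first-run S3 arrays or on the 12 S3 arrays alone. It was 7 with run as a random block, on the arrays with Y-linked signal or with the covariate. Prim1, the primase subunit, read 8.09, 8.74, 8.59, 8.36 and 8.68 in Mst1KO_S3. WT_S3 arrays were between 6.85 and 7.16 in the first run and between 7.86 and 8.60 in the second. Mst1KO_S3 thus stood apart from WT_S3 of its own run and overlapped the second run. The difference was 1.34 (SE 0.20, adjusted p = 0.00026), and without the run term the gene was not called (adjusted p = 0.060). Tyms, which encodes thymidylate synthase, rose by 1.04 (SE 0.24), but was not called in the first run alone (adjusted p = 0.11).

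Among regulators of the cycle, 3 of 17 E2F and DREAM genes and 4 of 17 cyclin and CDK inhibitor genes rose, with medians of 0.23 and 0.29. The E2F family gene E2f2 ran from 6.90 to 8.21 in WT_S3 with a median of 7.72, and read 8.36, 8.46, 8.54, 8.89 and 8.53 in Mst1KO_S3. The ranges did not meet, and the difference was 1.096 (SE 0.17, adjusted p = 0.00044). Uhrf1, which keeps up DNA methylation through replication, rose by 1.00 (SE 0.14). The cyclin gene Ccna2, active in S phase and mitosis, ran from 6.88 to 8.13 in WT_S3 with a median of 7.69, against 8.72, 8.45, 8.72, 8.83 and 8.15 in Mst1KO_S3. The lowest Mst1KO_S3 array was only just above the highest WT_S3 array, and the difference was 1.14 (SE 0.18, adjusted p = 0.00063). Ccne1 and Ccne2, for the cyclins of entry into S phase, rose by 0.82 (SE 0.17) and 0.65 (SE 0.16). Neither was called in the first run alone (adjusted p = 0.085 and 0.086).

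Mitotic genes made up the rest. Of 41 genes for mitotic entry and the spindle 12 rose (median 0.53), of 14 kinesins 4 (median 0.57), of 24 kinetochore genes 8 (median 0.35), and of 18 condensin and chromatin genes 8 (median 0.34). The kinetochore count was 4 without Mst1KO_S3 replicate 2 or 3, and 5 without WT_S3 replicate 2 or 4. The condensin and chromatin count was 2 without Mst1KO_S3 replicate 4, 4 without WT_S3 replicate 3, and 5 without WT_S3 replicate 1 or 2 or Mst1KO_S3 replicate 1 or 3. On the first-run arrays alone 4 licensing genes, 6 for mitotic entry and the spindle, 2 kinesins, 1 kinetochore gene and 0 condensin and chromatin genes rose. Stmn1, which encodes the microtubule destabiliser stathmin, rose by 1.00 (SE 0.14), and Kif22, for a chromosome-bound kinesin, by 0.95 (SE 0.16). Ube2c, which encodes a ubiquitin-conjugating enzyme of the anaphase-promoting complex, rose by 0.94 (SE 0.21). Of 18 genes for DNA repair with replication 4 rose, with a median of 0.26. Without the run term 1 kinesin and 0 of these repair genes were called.

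**Figure D2:**
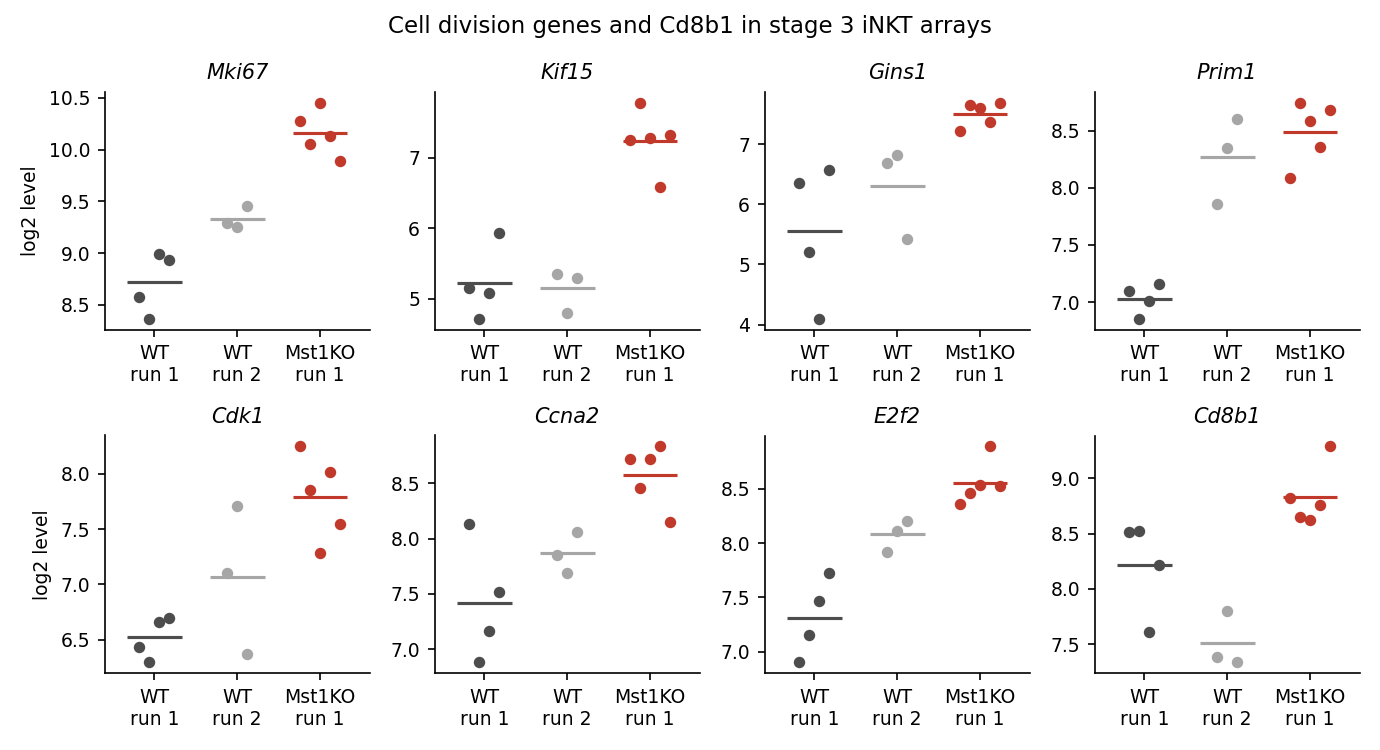
Log2 level of 7 cell division genes and Cd8b1 on the 12 stage 3 arrays (points), with the mean of each group as a bar, for WT first run, WT second run and Mst1KO. Mki67, Kif15, Gins1, Ccna2, E2f2 and Cd8b1 have every Mst1KO array above every WT array, while Prim1 and Cdk1 overlap with the WT second run.

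Markers of double-positive thymocytes, a population that holds dividing precursors, were read beside these genes. Of 10 measured, Cd8b1 rose and Cd4 fell, the latter by 0.47. The median difference of the 10 was 0.01, and 6 were above 0. Cd8b1 ran from 7.34 to 8.52 in WT_S3 with a median of 7.80, and read 8.82, 8.65, 8.62, 8.76 and 9.29 in Mst1KO_S3. No WT_S3 array reached Mst1KO_S3, and the difference was 0.73 (SE 0.18, adjusted p = 0.018). This call was lost without WT_S3 replicate 3 (adjusted p = 0.052) and without Mst1KO_S3 replicate 5 (adjusted p = 0.059), and on the first-run arrays alone (adjusted p = 0.14). Dntt and Cd8a, named after their values were seen, had differences of 0.87 (SE 0.32, adjusted p = 0.099) and 0.49 (SE 0.19, adjusted p = 0.12). Dntt was called without WT_S3 replicate 4 (1.08, adjusted p = 0.047 in limma) and Cd8a without WT_S3 replicate 3 (0.67, adjusted p = 0.023). Rag2 was above the controls on 0 WT_S3 arrays and 1 Mst1KO_S3 array, and Ptcra had a difference of -0.24 (SE 0.11). The summed level of the 10 markers was 79.7 to 82.9 in WT_S3 and 81.6 to 83.9 in Mst1KO_S3, and their part in the cell division result was not tested.

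Adhesion genes were the next group, with 8 of 24 higher and 1 lower (37.5% called, against 6.37% of all clusters) and a median of 0.07. Itga4, which encodes the alpha 4 integrin subunit that binds VCAM-1, ran from 9.45 to 10.31 in WT_S3 with a median of 9.76, and read 11.52, 11.62, 11.15, 11.20 and 11.82 in Mst1KO_S3. The groups lay far apart, with a difference of 1.54 (SE 0.16, adjusted p = 4.1e-06). Emp1, for a small membrane protein, read 10.45, 10.53, 10.46, 10.52 and 10.17 against 8.51 to 8.93 in WT_S3 (median 8.75). No array of one group came near the other, with means of 8.73 ± 0.19 (SD, n = 7) and 10.43 ± 0.15 (SD, n = 5) and a difference of 1.61 (SE 0.11, adjusted p = 3.6e-09). Itga2, for the collagen-binding alpha 2 subunit, read 10.10, 10.04, 9.94, 10.003 and 10.08 against 8.54 to 9.54 in WT_S3 (median 9.34). The groups were separate, with a difference of 0.76 (SE 0.17, adjusted p = 0.011). Jaml, a junctional adhesion gene, and Itgb3, the beta 3 subunit, rose by 0.84 (SE 0.13) and 0.82 (SE 0.18). With the negative control level as a covariate, 4 genes of the list were called, on the 12 S3 arrays alone 5, and with the covariate Itga2 and Itgb3 were not (adjusted p = 0.075 and 0.099).

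Receptors that guide exit from and residence in the thymus gave 6 higher and 1 lower of 22 (31.8%, against 6.37% of all clusters). Their median was 0.21. On the first-run S3 arrays, or with the covariate, 4 were called in all, and on the 12 S3 arrays alone 3. S1pr1, the receptor through which lymphocytes leave the thymus, ran from 8.01 to 8.58 in WT_S3 with a median of 8.35, and read 9.48, 9.80, 9.09, 9.37 and 9.39 in Mst1KO_S3. The groups did not overlap, and the difference was 1.13 (SE 0.12, adjusted p = 8.3e-06). Cd69, whose product takes that receptor off the surface, rose too. It read 12.04, 12.13, 11.98, 12.02 and 11.79 in Mst1KO_S3 against 10.68 to 11.75 in WT_S3 (median 11.02), a difference of 0.81 (SE 0.15, adjusted p = 0.0024). The groups were apart, with WT_S3 replicate 4 close to the lowest Mst1KO_S3 array.

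Among chemokine receptors, Ccr9, which binds the thymic and gut chemokine CCL25, read 7.31, 7.43, 7.47, 7.86 and 7.61 in Mst1KO_S3 against 5.99 to 7.26 in WT_S3 (median 6.89). The groups were just apart, 5 of the 7 WT_S3 arrays were above the controls, and the difference was 0.98 (SE 0.18, adjusted p = 0.0030). Ccr8 fell, with WT_S3 arrays from 10.20 to 11.24 (median 10.63) and Mst1KO_S3 arrays at 9.39, 9.21, 9.99, 10.003 and 9.94. All Mst1KO_S3 arrays were lower, by a difference of -0.94 (SE 0.23, adjusted p = 0.016) that was no longer called without Mst1KO_S3 replicate 2 (adjusted p = 0.0501). Ccr6, a receptor of interleukin-17 producing cells, read 9.30, 9.41, 9.37, 10.19 and 9.46 in Mst1KO_S3 and ran from 6.49 to 8.95 in WT_S3 with a median of 8.42. All WT_S3 arrays were lower, with a difference of 1.63 (SE 0.38, adjusted p = 0.015) that was not called in the first run alone (adjusted p = 0.083).

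Other genes of interleukin-17 producing iNKT cells were less clear. Of 19 measured 4 rose and 0 fell (21.1% called, against 6.37% of all clusters), with a median of 0.43. Il17a, Il17re and Il23r, named after their values were seen, had differences of -0.13 (SE 0.15), 0.66 (SE 0.30) and 1.11 (SE 0.56) and were not called. The mean level of the list was 8.14 on WT_S3 replicate 4, 8.79 to 8.90 on the second-run WT_S3 arrays and 9.26 to 9.29 on the other 3. The Mst1KO_S3 arrays lay at 9.23 to 9.65 and overlapped those 3.

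Calcium-binding and lectin genes had the largest share of calls of any list. Of 17 S100, annexin, galectin and related genes 10 rose and 1 fell (64.7% called, against 6.37% of all clusters). Their median was 0.47, and 7 rose in the first run alone. Lgals1, which encodes the lectin galectin-1, ran from 11.68 to 11.996 in WT_S3 with a median of 11.91, and read 12.67, 12.72, 12.69, 12.79 and 12.78 in Mst1KO_S3. Both groups were tight, with means of 11.85 ± 0.12 (SD, n = 7) and 12.73 ± 0.05 (SD, n = 5) and a difference of 0.89 (SE 0.07, adjusted p = 4.5e-08). Anxa2, for a membrane-binding annexin, read 11.10, 10.997, 11.12, 11.07 and 11.29 against 9.85 to 10.87 in WT_S3 (median 10.57). Every Mst1KO_S3 array was above WT_S3, with a difference of 0.91 (SE 0.13, adjusted p = 0.00022). Anxa1 and Lgals3 rose by 1.36 (SE 0.25) and 0.80 (SE 0.19). Lmna, which encodes the nuclear lamins A and C, ran from 7.40 to 8.31 in WT_S3 with a median of 7.80, and read 8.85, 8.79, 9.16, 9.28 and 9.24 in Mst1KO_S3. The groups were apart, with a difference of 1.37 (SE 0.12, adjusted p = 3.5e-07).

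**Figure D3:**
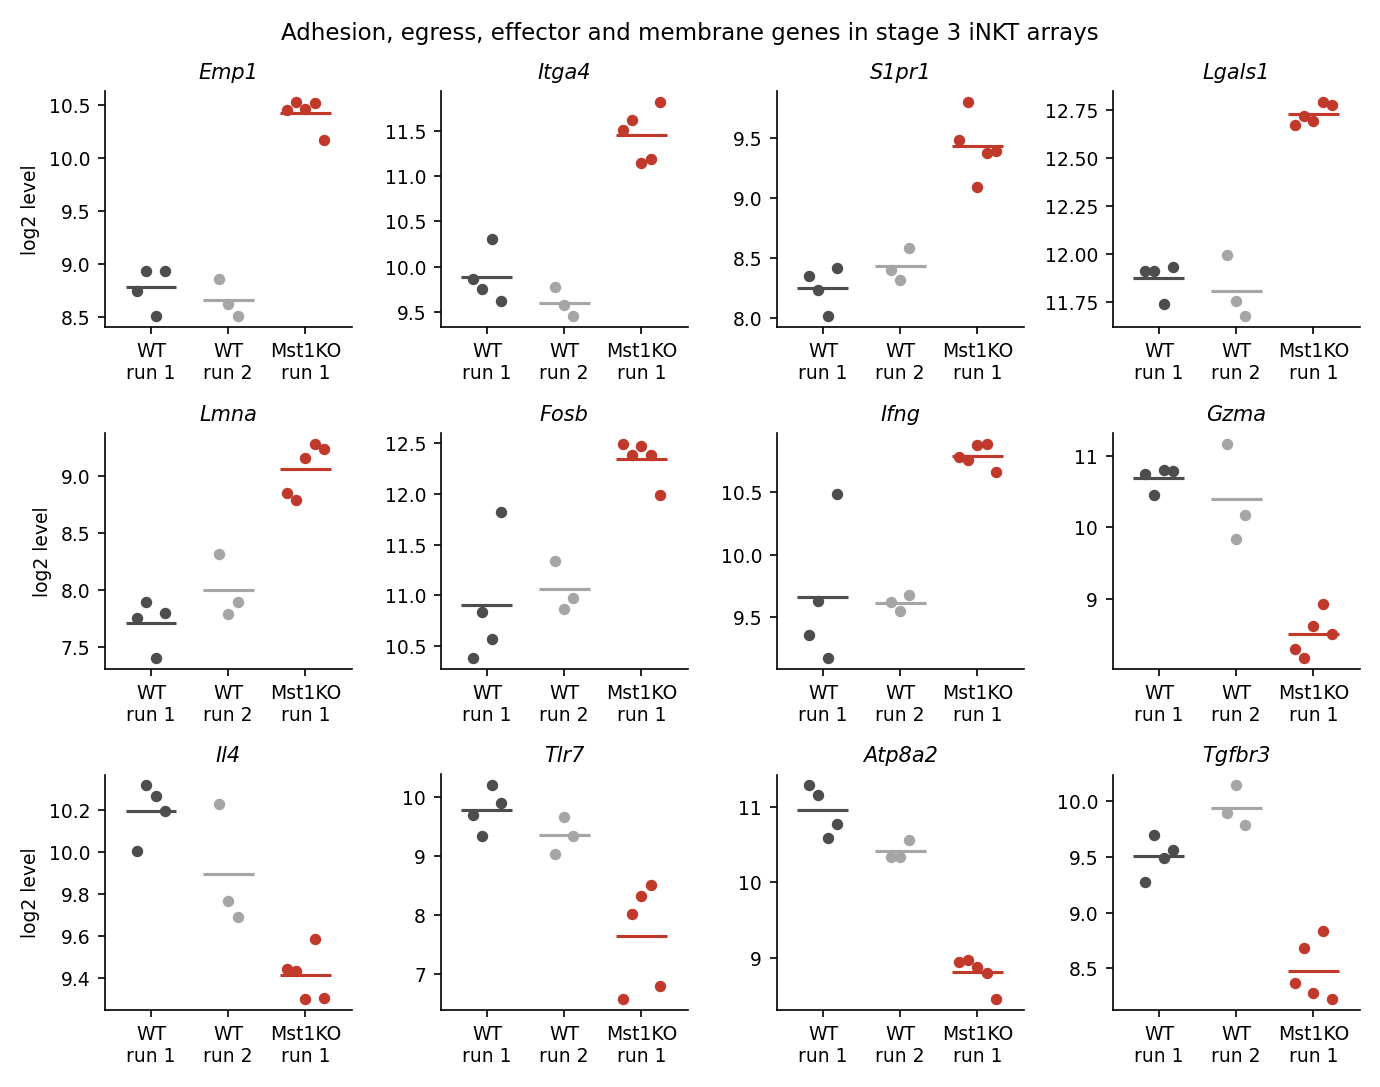
Log2 level of 12 genes on the stage 3 arrays (points), with the mean of each group as a bar, for WT first run, WT second run and Mst1KO. Each gene has all Mst1KO arrays on one side of all WT arrays, higher from Emp1 to Ifng and lower for Gzma, Il4, Tlr7, Atp8a2 and Tgfbr3, and the Mst1KO arrays of Tlr7 spread from 6.57 to 8.51. The genes were picked among called ones, and over all 22206 clusters 325 lay apart in this way as higher and 238 as lower.

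Immediate early genes moved both ways, with 5 of 31 higher and 4 lower (29.0% called, against 6.37% of all clusters) and a median of 0.00. Fosb, an AP-1 subunit, ran from 10.39 to 11.82 in WT_S3 with a median of 10.87, and read 12.49, 12.38, 12.47, 12.38 and 11.99 in Mst1KO_S3. The ranges did not meet, with a difference of 1.44 (SE 0.25, adjusted p = 0.0015). Its partner Jun read 11.33, 10.89, 11.05, 11.13 and 10.75 in Mst1KO_S3 against 9.58 to 10.79 in WT_S3 (median 9.79), a difference of 1.14 (SE 0.20, adjusted p = 0.0015). For both the highest WT_S3 array was replicate 4, which for Jun passed the lowest Mst1KO_S3 array. Zfp36, whose product speeds the decay of cytokine messages, rose by 0.63 (SE 0.10). Of those that fell, the AP-1 subunit gene Fosl2 and Rgs1, a brake on chemokine receptor signals, were named after their values were seen and fell by 0.56 (SE 0.09) and 0.44 (SE 0.08).

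The orphan nuclear receptor genes Nr4a1 and Nr4a2, which respond to T cell receptor signals, went opposite ways. Their list of 16 had 1 rise and 2 falls (18.75% called, against 6.37% of all clusters). Nr4a1 rose by 0.53 (SE 0.12). Nr4a2 read 9.12, 9.32, 9.08, 9.81 and 9.18 in Mst1KO_S3 against 9.63 to 10.43 in WT_S3 (median 10.19), a difference of -0.76 (SE 0.16, adjusted p = 0.0074). Mst1KO_S3 replicate 4 lay within the WT_S3 range, and the gene was not called in the first run alone (adjusted p = 0.075).

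Of 21 cytotoxic granule and death ligand genes 1 rose and 3 fell (19.0% called, against 6.37% of all clusters), with a median of -0.04. Gzma, which encodes the protease granzyme A, ran from 9.84 to 11.17 in WT_S3 with a median of 10.74, and read 8.30, 8.18, 8.62, 8.93 and 8.51 in Mst1KO_S3. The groups were far apart, with a difference of -2.08 (SE 0.23, adjusted p = 9.2e-06), which is 4.22-fold lower. Gzmc, for granzyme C, went the other way, at 8.77, 9.18, 9.12, 9.09 and 9.32 against 7.44 to 8.38 in WT_S3 (median 7.98). No WT_S3 array reached Mst1KO_S3, with a difference of 1.25 (SE 0.19, adjusted p = 0.00034). The death ligand gene Tnfsf10 fell by 0.66 (SE 0.15), and Serpinb9, whose product inhibits granzyme B, by 0.61 (SE 0.14).

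Of 24 cytokine and chemokine genes 2 rose and 2 fell (16.7% called, against 6.37% of all clusters), with a median of -0.09. Ifng, which encodes interferon gamma, read 10.78, 10.76, 10.88, 10.89 and 10.66 in Mst1KO_S3, and WT_S3 arrays ran from 9.18 to 10.48 with a median of 9.62. The groups were separate, with WT_S3 replicate 4 nearest to Mst1KO_S3. The difference was 1.07 (SE 0.26, adjusted p = 0.016), and it was not called with the control level as a covariate (adjusted p = 0.056) or on the arrays with Y-linked signal (adjusted p = 0.10). Il4, which encodes interleukin-4, was lower, at 9.45, 9.44, 9.30, 9.59 and 9.31 against 9.69 to 10.32 in WT_S3 (median 10.20). The groups did not overlap, with a difference of -0.72 (SE 0.11, adjusted p = 0.00054). Tnf rose by 0.63 (SE 0.14) and Il13 fell by 0.47 (SE 0.10), and neither was called in the first run alone (adjusted p = 0.063 and 0.053). Of 14 genes of interleukin-4 producing iNKT cells, which include Il4 and Il13, 4 fell and 1 rose (35.7%, against 6.37% of all clusters). Their median was -0.22. Without Mst1KO_S3 replicate 4 this list had 3 calls in all.

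Of 14 inhibitory receptor genes 3 fell and 0 rose (21.4% called, against 6.37% of all clusters), with a median of -0.32. Cd160, for a receptor of innate-like lymphocytes, read 9.44, 9.26, 9.34, 9.46 and 9.51 in Mst1KO_S3 against 9.80 to 10.32 in WT_S3 (median 10.21). The ranges did not meet, with a difference of -0.68 (SE 0.12, adjusted p = 0.0015). Tigit was above the controls on 7 WT_S3 arrays and 1 Mst1KO_S3 array. Its fitted difference of -0.86 (SE 0.20, adjusted p = 0.012) is against levels mostly at the background, so that the size of the fall is not measured, and it was not called in the first run alone (adjusted p = 0.12). Tyrobp, the adaptor gene of activating NK cell receptors, rose by 0.74 (SE 0.11), while the adaptor gene Fcer1g, named after its value was seen, had a difference of -0.29 (SE 0.17, adjusted p = 0.31). Of 8 NK cell markers, which hold both adaptors, 2 rose and 1 fell (37.5% called, against 6.37% of all clusters). Their median was -0.12. Only 1 of 3 gamma-delta T cell markers had a difference above 0. It was Cd163l1, which rose by 0.82 (SE 0.12), and the median of the 3 was -0.08. The summed level of the NK cell markers was 68.4 to 71.3 in WT_S3 and 68.2 to 70.0 in Mst1KO_S3.

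Atp8a2, which encodes a flippase that moves phospholipids to the inner leaflet, ran from 10.33 to 11.28 in WT_S3 with a median of 10.59, and read 8.95, 8.98, 8.88, 8.80 and 8.45 in Mst1KO_S3. No WT_S3 array reached Mst1KO_S3, with a difference of -2.15 (SE 0.14, adjusted p = 3.6e-09), which is 4.45-fold lower. Over all 15 flippase and scramblase genes 2 fell and 2 rose (26.7% called, against 6.37% of all clusters), with a median of -0.09. Tlr7, for the endosomal receptor of single-stranded RNA, ran from 9.04 to 10.19 in WT_S3 with a median of 9.66, and read 6.57, 8.01, 8.32, 8.51 and 6.81 in Mst1KO_S3. All Mst1KO_S3 arrays were lower, with a difference of -2.09 (SE 0.29, adjusted p = 0.00018). The 2 highest of them were replicates 3 and 4, the arrays without Y-linked signal, and Tlr7 is X-linked. On the arrays with Y-linked signal alone the difference was -2.60 (adjusted p = 2.5e-05).

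Ifitm3, which encodes an antiviral membrane protein, read 7.77, 7.61, 7.77, 7.81 and 8.12 in Mst1KO_S3 against 8.53 to 9.59 in WT_S3 (median 8.94). The groups were separate, with a difference of -1.31 (SE 0.14, adjusted p = 9.2e-06). Of 27 genes of the type I interferon response 1 rose and 3 fell, Tlr7 among the latter (14.8%, against 6.37% of all clusters). Their median was 0.04. Trf, which encodes the iron carrier transferrin, read 9.88, 9.74, 9.64, 9.93 and 9.81 in Mst1KO_S3 against 10.81 to 11.19 in WT_S3 (median 10.91). It was lower on every Mst1KO_S3 array, with a difference of -1.15 (SE 0.14, adjusted p = 3.1e-05).

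Of 18 TGF-beta receptor and SMAD genes 2 fell and 0 rose (11.1% called, against 6.37% of all clusters). Their median was -0.05, as over all clusters. Tgfbr3, the coreceptor betaglycan, ran from 9.27 to 10.14 in WT_S3 with a median of 9.70, and read 8.36, 8.68, 8.28, 8.83 and 8.22 in Mst1KO_S3. The groups were apart, with a difference of -1.09 (SE 0.16, adjusted p = 0.00022). Smad1, a signal transducer of the family, fell by 0.54 (SE 0.10). Bcl2l11, which encodes the death-promoting protein BIM, read 8.62, 8.77, 8.39, 8.31 and 8.30 in Mst1KO_S3 against 8.84 to 9.46 in WT_S3 (median 9.27). All Mst1KO_S3 arrays were lower, with a difference of -0.89 (SE 0.12, adjusted p = 0.00013). Pim1, for a survival kinase induced by cytokines, rose by 0.60 (SE 0.10).

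Of 18 aminoacyl-tRNA synthetase genes 5 rose and 0 fell (27.8% called, against 6.37% of all clusters), with a median of 0.24. Cars and Nars, which charge tRNAs with cysteine and asparagine, rose by 0.89 (SE 0.16) and 0.41 (SE 0.08). Of 20 ribosomal protein genes 0 were called by limma, against 6.37% of all clusters, and 19 had differences below 0. An unadjusted p under 0.05 in limma was reached by 4 of them, and by 5244 of all 22206 clusters. The median of the 20 was -0.07, against -0.05 over all clusters.

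**Figure D4:**
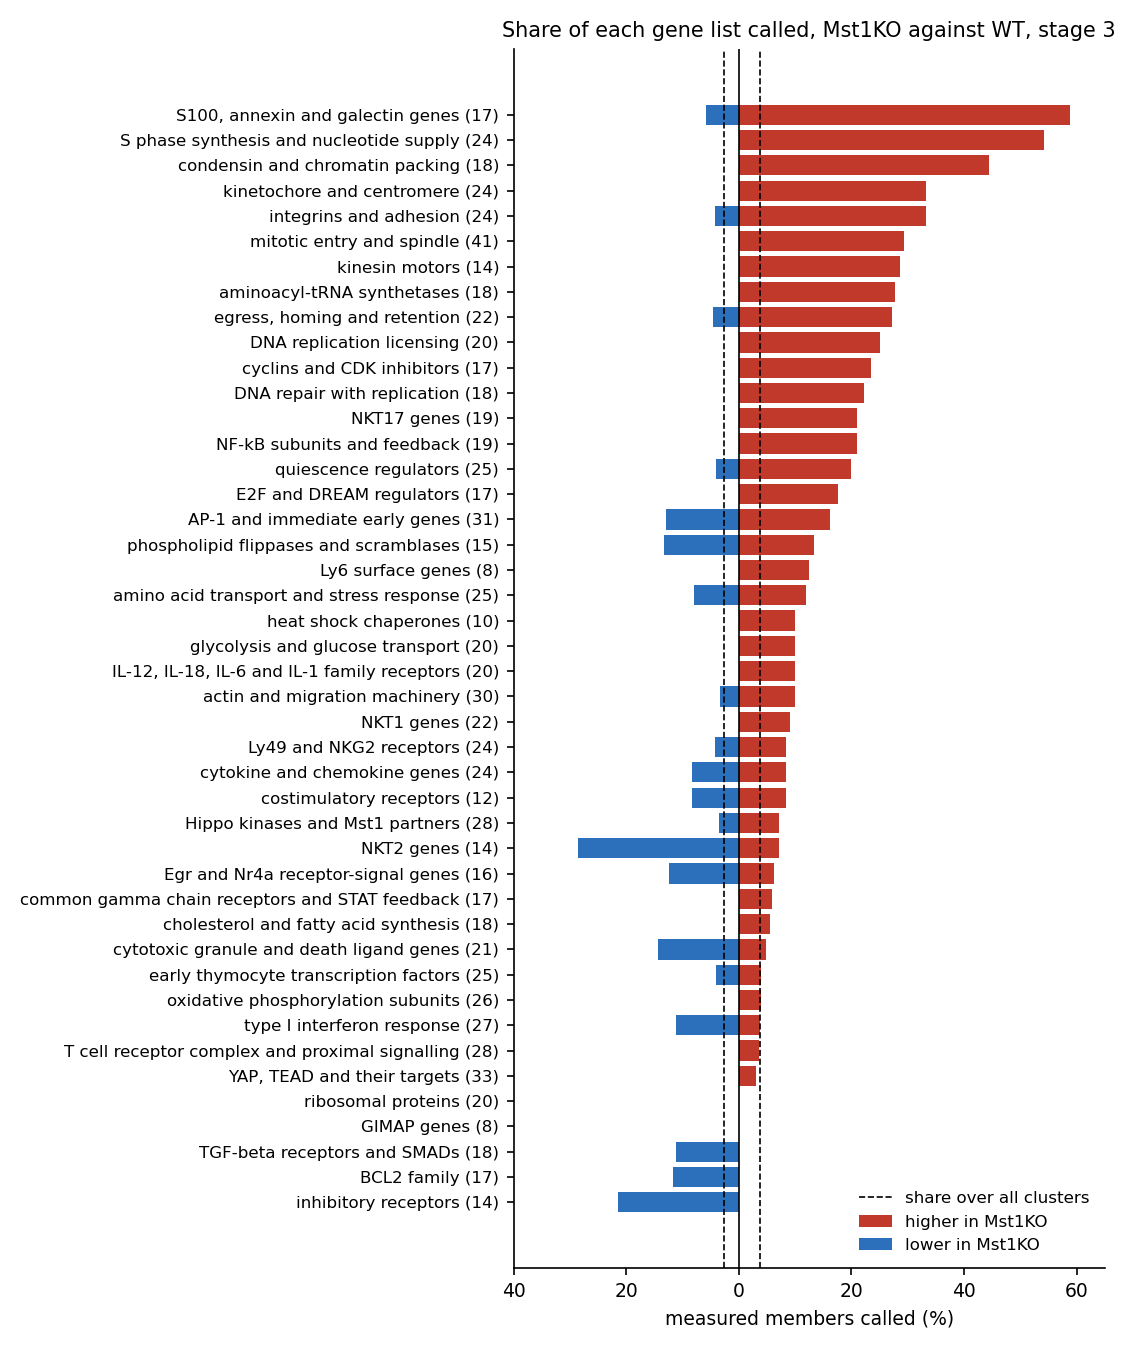
Share of the measured members of each gene list called higher (to the right) or lower (to the left) in Mst1KO against WT at stage 3, with the number measured in parentheses. Dashed lines mark the shares over all clusters, 3.73% higher and 2.64% lower, and the S100, annexin and galectin genes and the S phase genes have the longest bars.

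Of 28 Hippo kinase and Mst1 partner genes 2 rose and 1 fell (10.7%, against 6.37% of all clusters), with a median of 0.02. Only 1 was called without WT_S3 replicate 2 or 3 or without Mst1KO_S3 replicate 1, 2 or 5. Stk38, for a kinase that acts downstream of Mst1 and Mob1, rose by 0.47 (SE 0.10) but was not called with the control level as a covariate (adjusted p = 0.15). The adaptor gene Rassf5 was called lower, with a difference of -0.28. That call was lost in 15 alternatives, 8 of them with a single array left out. Of 33 genes for YAP, TEAD and their targets 1 was called (3.03%, against 6.37% of all clusters), with a median of -0.06, and 9 were above the controls on no array. That call was lost without WT_S3 replicate 2 or Mst1KO_S3 replicate 5, and 2 were called without Mst1KO_S3 replicate 1. Stk3, which encodes the related kinase Mst2, was not analysed here.

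In S1_S2 cells the same genotypes differed in 116 clusters (0.522%). Of these, 57 were also called in S3 cells, all 57 in the same direction, which is 4.03% of the S3 calls and 49.1% of the S1_S2 calls. Emp1 (1.13), Jaml (1.47), Fosb (1.79), Jun (1.49), Ifng (1.48), Cd69 (1.05), Il4 (-0.78), Trf (-0.81) and Atp8a2 (-1.75) were called at both stages, with the S1_S2 difference given here. Ifng was above the controls on 2 of the 6 WT_S1_S2 arrays, so that the size of its rise there is not well measured. The difference between the stages was called in 35 clusters (0.158%), 24 of them among the S3 calls. That count was 22 without WT_S3 replicate 1, and 15, 23, 18 and 17 without Mst1KO_S3 replicates 2, 3, 4 and 5. On the first-run arrays of both stages it was 10, with 5 of the 35 among them. On the arrays with Y-linked signal it was 0 by limma, where 1504 of the 22206 clusters had an unadjusted p under 0.05.

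Mki67, Lmna, S1pr1 and Lgals1 were among the 24, with smaller differences of 0.28, 0.31, 0.31 and 0.33 in S1_S2 cells. Kif15 was among them too, with 0.38 in S1_S2 cells, but its WT_S3 level was below the controls, so that the size of its contrast is not measured. For Mki67 the S3 difference exceeded that of S1_S2 cells by 1.14 (SE 0.19, adjusted p = 0.0063). Gzma was close to the background in S1_S2 cells, above the controls on 4 of 6 WT and 2 of 4 Mst1KO arrays, where a fall could hardly show. Its difference there was 0.04 (SE 0.25), and the fitted contrast of the stages, -2.11 (SE 0.31, adjusted p = 0.0058), rests on those levels. Ccr9, Itga2 and Ccr8 had differences of opposite sign in S1_S2 cells, at -0.66, -0.47 and 0.61, none of which was called there.

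Of the 193 cell division genes 0 were called in S1_S2 cells by limma, against 0.522% of all clusters. At an unadjusted p under 0.05 in limma 13 were higher and 3 lower, and the median difference of the 193 was 0.06. Their mean level was 8.59 to 8.86 on first-run WT_S1_S2 arrays and 8.63 to 9.02 on Mst1KO_S1_S2 arrays, and these overlapped. In 2 of the 193 genes, Kif15 and Mki67, the difference between the stages was called. In WT cells the 193 genes were lower at S3 than at S1_S2, with a median of -0.95, a comparison that shares the WT_S3 arrays with that of the genotypes.

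**Figure D5:**
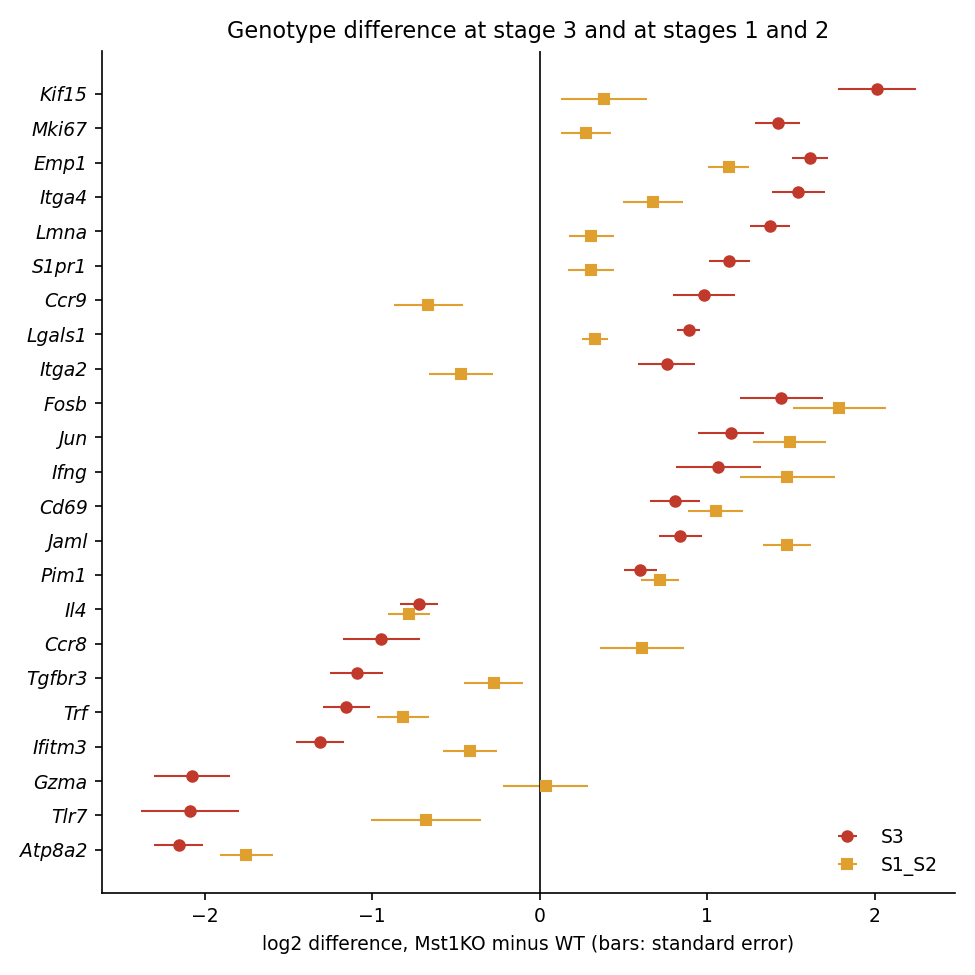
Log2 difference of Mst1KO against WT for 23 genes in S3 cells (circles) and S1_S2 cells (squares), with standard errors as bars. Mki67, Lmna, S1pr1 and Gzma lie much nearer to 0 in S1_S2 cells, where Gzma is close to the background, while Emp1, Fosb, Jun, Il4 and Atp8a2 lie well to the same side of 0 at both stages.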

How the data were processed

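Clariom S arrays of sorted thymic iNKT cells were analysed. The deposited values are log2 levels made by the authors by RMA in Affymetrix Expression Console 1.1, per the submitters' processing notes. The sources used here name no genome build for the arrays. The 6640 control items were set apart and 22206 transcript clusters were tested, 19572 of them with 1 gene symbol in the platform table. The 5222 negative controls gave each array's background. limma 3.58.1 in R 4.3.3 fitted 6 group means and a term for the title number run over all 25 arrays, with 18 residual degrees of freedom and Benjamini-Hochberg adjustment over all clusters, and a threshold of 0.05. Array number limits the precision. The fit was tested on simulated data. Run was read from title numbers and may stand for other differences. Of 996 listed genes 912 were matched.

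The members and gene lists were chosen with earlier results of these data known. Named genes were the 15 largest rises and falls among called clusters with 1 symbol above background, up to 5 called members of each list by size of change, or 2 by p in a list without calls, and Stk4, the sort markers and Mki67. Alternatives changed the run term, the arrays used, the normalization, filter, weights, variance and fold minimum, included a term for sex read from Y-linked signal, and omitted the stage 3 arrays singly. A covariate for the negative control level was added after seeing the data.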

Additional observations from a re-analysis of the deposited data

Results flagged for a closer look

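Among the levels of individual genes, 1 array stood far from the others of its group in 6 cases, of 68 gene groups tested, where chance alone flags about 1 in 20 groups. Mst1KO_S3 replicate 5 was low for Emp1, at 10.17 against 10.45 to 10.53 on the other arrays, and for Fosb, at 11.99 against 12.38 to 12.49. Mst1KO_S3 replicate 4 was high for Ccr6, at 10.19 against 9.303 to 9.457. WT_S3 replicate 4 was high for Jun, at 10.79 against 9.585 to 10.02, and for Ifng, at 10.48 against 9.176 to 9.68. WT_S3 replicate 2 was low for Itga2, at 8.541 against 9.207 to 9.544. Each of these 6 genes was still called in limma when the array that stood apart was left out.

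The effect of the genotype differed between S3 and S1_S2 cells in 9 of the genes described, by limma's test of the difference itself at an adjusted p under 0.05. These calls depend on the fit. The first-run arrays of both stages called 10 clusters, 5 of them among the main 35, and the arrays with Y-linked signal called 0. Which of the 9 genes are among those 5 is not given here. The S3 difference was above that of S1_S2 cells by 1.642 for Ccr9, 1.629 for Kif15, 1.229 for Itga2, 1.144 for Mki67, 1.064 for Lmna, 0.8267 for S1pr1 and 0.56 for Lgals1 on the log2 scale. It was below by a difference of -2.112 for Gzma and -1.554 for Ccr8. The values of Kif15, whose WT_S3 level was below the negative controls, and of Gzma, which was close to them in S1_S2 cells, are fitted contrasts whose size is not measured.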

How the results depend on the processing

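The main counts, 1415 clusters called, 829 higher and 586 lower, 61 cell division genes and 35 clusters that differed between stages, moved in size with the fit. No gene named as called changed sign under any alternative tried. Without the run term 731 clusters were called, 455 higher and 276 lower, with 33 cell division genes and 17 differences between stages. First-run S3 arrays alone gave 336, 233 and 103 with 23 cell division genes. First-run arrays of both stages gave 10 differences between stages, 5 of them among the main 35. Run as a random block gave 858, 530 and 328 with 40, and the 12 S3 arrays alone 5.0e+02, the sum of 331 higher and 170 lower, with 33. Centring on array medians and a sex term each left 382 lower calls. A 1.5-fold minimum left 13 calls, 9 higher and 4 lower, with 2 cell division genes. Arrays with Y-linked signal gave 475, 293 and 182 with 27, and 0 differences between stages by limma. For that difference 1504 of the 22206 clusters had an unadjusted p under 0.05 there. The negative control covariate, chosen after seeing the data, gave 500, 368 and 132. The share of calls that were higher was 58.6%, against 73.0% after centring, 69.3% in the first run, 69.2% with the 1.5-fold minimum and 73.6% with the covariate. Leaving out 1 S3 array at a time gave 783 to 1399 clusters, 490 to 801 higher, 293 to 598 lower, 15 to 34 differences between stages and 46 to 66 cell division genes. Of the named genes, apart from Cd24a and Rassf5, these lost their call. On the arrays with Y-linked signal they were Ccne1, Ccne2, Ccr6, Cd8b1, Dgka, Dtl, Ifng, Lgals3, Ndrg1, Nr4a1, Serpinb9, Tigit, Tnf, Tnfsf10, Tyms and Ube2c. With the covariate they were Ccne1, Ccne2, Ccr8, Cd4, Cd8b1, Dgka, Dtl, Ifng, Il13, Itga2, Itgb3, Smad1, Stk38, Tnf, Tnfsf10 and Tyms. On the first-run S3 arrays they were Ccne1, Ccne2, Ccr6, Cd8b1, Il13, Ndrg1, Nr4a2, Pik3ip1, Rgs1, Serpinb9, Tigit, Tnf and Tyms. On the 12 S3 arrays they were Ccne1, Ccne2, Ccr6, Ccr8, Cd8b1, Itgb3, Ndrg1, Nr4a1, Pik3ip1, Tigit and Tyms. Without the run term they were Dtl, Il13, Kif22 and Prim1, with run as a random block Dtl, and with a sex term Ndrg1. Among genes not called, Cd3d (main difference -0.0012) was at 0.0033 on the first-run arrays and on the 12 arrays, 0.0026 after quantile normalization, 0.037 after centring, 0.0044 with array weights, 0.0022 with the covariate and -0.017 to 0.021 with 1 array left out. Klrb1c (main difference 0.015) was at -0.14 without the run term, -0.18 on the first-run arrays and on the 12 arrays, -0.072 with run as a random block, -0.12 with the covariate and -0.029 to 0.093 with 1 array left out. The fits on the first-run S3 arrays and on the 12 S3 arrays use no S1_S2 arrays, unlike the main fit and its run term. Medians close to 0 also changed sign under at least 1 alternative for the AP-1, Hippo, YAP, cytotoxic, interferon and quiescence lists. The causes were not tested. No paired analysis was possible because the labels give no replicate numbers.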

Other observations

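Of 25 measured genes that hold lymphocytes in quiescence, 5 rose and 1 fell (24% called, against 6.37% of all clusters). Their median difference was 0.05, against -0.05 over all clusters. Ndrg1, a growth-restraining gene of T cell anergy, rose by 0.73 (SE 0.18), and Dgka, for a kinase that removes the second messenger diacylglycerol, by 0.34 (SE 0.07). Pik3ip1, whose product restrains the kinase PI3K, fell by 0.47 (SE 0.11). On the first-run arrays alone 1 of the 25 genes was called. In the NF-kB pathway Traf1, an adaptor of tumour necrosis factor receptors, rose by 0.80 (SE 0.15) and was called in every alternative other than the 1.5-fold minimum.

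A single array is labelled dKOMst_S3, which allows no test, and its title number lies in the second run. Its mean level of the 193 cell division genes was 8.31, above all WT_S3 and all Mst1KO_S3 arrays. All Mst1KO_S3 arrays are of the first run, where WT_S3 lay at 7.70 to 7.93, against 8.01 to 8.08 in the second. Rank against Mst1KO_S3 therefore cannot separate genotype from run, here or for the genes below. On the dKOMst_S3 array Mki67 read 10.77, Lmna 9.45, S1pr1 9.91 and Anxa2 11.52, also above every Mst1KO_S3 array. Tgfbr3 read 8.16, below every one. WT_S3 was higher in the second run for Mki67 (9.25 to 9.45 against 8.36 to 8.996) and Anxa2 (10.75 to 10.87 against 9.85 to 10.57). So was Tgfbr3 (9.78 to 10.14 against 9.27 to 9.70), whose reading on the dKOMst_S3 array was low. Itga4 at 11.46, Lgals1 at 12.68, Gzmc at 9.29, Ifng at 10.70 and Tlr7 at 8.28 lay within the Mst1KO_S3 range. Atp8a2 at 9.33, Gzma at 9.08, Trf at 10.30 and Emp1 at 9.98 lay between the ranges of the groups. Ccr8 at 10.48, Ccr6 at 8.12, Fosb at 11.53, Cd160 at 9.95 and Il4 at 9.87 lay within the WT_S3 range.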
